A study of Homo sapiens with 12 samples.

Results

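The vacuolar H+-ATPase (V-ATPase) and the lysosome it acidifies were followed in human triple-negative breast cancer cells after knockdown of PHF19. The set holds every gene whose symbol begins with ATP6V or ATP6AP in the deposited tables, pseudogenes left out, and 25 named lysosomal genes. The set was chosen by the fall of 1 measured value, the ATP6V1E1 count after PHF19 siRNA, and the question was whether the other subunits or the lysosomal genes changed with it. The fall of ATP6V1E1 is therefore given as a description, without a test. The members numbered 51 of the 29972 gene rows of each table, 26 pump rows and 25 lysosomal genes. The 26 pump rows were 13 V1 subunits, 9 V0 subunits, 2 accessory subunits, the antisense RNA ATP6V0E2-AS1 and the readthrough ATP6V1G2-DDX39B. The other 2 of 28 rows with these prefixes, ATP6V0CP3 and ATP6AP1L, are pseudogenes in RefSeq.

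Messenger RNA was sequenced from MDA-MB-436 cells and from BoM-1833 cells, a line selected for growth in bone, both named triple-negative in the labels. All cells were reverse-transfected with a lipid reagent and 5 nM siRNA in all, in medium with fetal calf serum, and taken 72 h later. The control groups (siNT) received a non-targeting pool. The treated groups (siPHF19) received 2 siRNAs against PHF19 mixed in equal parts and bought from another supplier than the pool, so the effects of either siRNA alone cannot be told apart. Each of the 4 groups had 3 libraries. The labels do not say that the libraries of a group are separate cultures, and the p-values then measure only the spread between these libraries.

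Reads assigned to genes numbered 13.7 to 24.0 M per library. In BoM-1833 all siPHF19 libraries had fewer, 13.7 to 16.6 M, than the siNT libraries, 17.6 to 21.3 M. PHF19 was at 9.75% of its siNT mean after siPHF19 in MDA-MB-436 and at 10.9% in BoM-1833. The oestrogen receptor gene ESR1 and the progesterone receptor gene PGR stayed at or under 3.97 normalised counts in every library, while ERBB2 averaged 1056 and 1041 in the siNT groups of MDA-MB-436 and BoM-1833. Among 6 leukocyte and osteoclast markers, DCSTAMP and OCSTAMP were at 0 in all 12 libraries and PTPRC averaged 0.622 and 16.6 in the siNT groups of MDA-MB-436 and BoM-1833, while CD14 averaged 305 and 93.5. Their summed level in MDA-MB-436 was 305 to 374 in siNT and 256 to 286 in siPHF19 libraries, and in BoM-1833 131 to 153 and 136 to 151. CD14 was called lower in MDA-MB-436, at -0.37 (SE 0.14, Wald adjusted p = 0.0399) in the authors' deposited table. Of 4 melanocyte markers MLANA and TYR were at 0 in all libraries, and the 4 summed to at most 31.8. A group of 3 endothelial and stromal markers summed to at most 51.4 in MDA-MB-436 and, with a siNT mean of 323 for PECAM1, 636 in BoM-1833. Of 5 epithelial and mesenchymal markers, KRT8 averaged 1067 and 8793 in the siNT groups and rose in both lines, with 0.69 (SE 0.08, Wald adjusted p = 3.17e-14) and 0.70 (SE 0.05, Wald adjusted p = 2.94e-36) in the authors' deposited table. KRT18 rose too, with 0.26 (SE 0.06, Wald adjusted p = 7.31e-04) and 0.46 (SE 0.06, Wald adjusted p = 6.16e-12), and VIM fell in BoM-1833, with -0.21 (SE 0.05, Wald adjusted p = 0.00213), in the authors' deposited table. The part of these shifts in the results on pump and lysosomal genes was not tested. Since whole cultures were sequenced, fewer cells of a kind and less RNA per cell cannot be told apart.

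The V-ATPase is a rotary proton pump in the membranes of lysosomes, endosomes, secretory vesicles and, in some cells, the plasma membrane. Its cytosolic V1 sector hydrolyses ATP, and its membrane V0 sector carries protons into the lumen. Subunits E and G form the peripheral stalks that hold the sectors together against the turning rotor, and subunits C and H join those stalks to V0. The acid it makes drives the cathepsins and the other hydrolases of the lysosome. In many cells the transcription factors TFEB, TFE3 and MITF bind the letters CACGTG in a longer palindrome near lysosomal and pump genes and raise their transcription when the lysosome is stressed or nutrients are short. Some subunits have several isoforms, and the isoform of subunit E made from ATP6V1E2 is known mainly from testis.

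The ATP6V1E1 gene occupies positions 17592136 to 17628818 of chromosome 22 (GRCh38, minus strand) and shares no exon with another annotated gene. In MDA-MB-436 the normalised count, the read count divided by the size factor of the library, was 1877, 1609 and 1563 in siNT replicates 1 to 3. The siPHF19 libraries of that line had 201, 214 and 185 normalised counts of ATP6V1E1. All 3 treated libraries were thus far below all 3 controls, and 11.9% of the siNT mean remained. In BoM-1833 ATP6V1E1 counted 2163, 1984 and 1918 in siNT and 415, 435 and 375 in siPHF19 libraries, again without overlap, and 20.2% remained. The authors' deposited table puts the log2 fold change at -3.07 (SE 0.11) in MDA-MB-436 and -2.31 (SE 0.09) in BoM-1833.

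ATP6V1E1 fell nearly as far as the targeted gene in MDA-MB-436 and less far in BoM-1833, so the transcripts of PHF19 and of the members were compared for stretches of like sequence. The siRNA sequences themselves were not used here, so the comparison of transcripts cannot tell whether the siRNAs acted on that of ATP6V1E1. Every window of 19 bases of the PHF19 transcript was laid without gaps against every window of each member's transcript (GENCODE v29). The closest windows of PHF19 and ATP6V1E1 had 3 mismatches and lay in the coding part of both. They are shown because they are the nearest approach of these transcripts, with mismatched bases in capitals, from base 357 to 375 of the PHF19 transcript and 669 to 687 of the ATP6V1E1 transcript, counted from the 5′ end.
PHF19: ACttgatgtccaaaCtgac
ATP6V1E1: TGttgatgtccaaaTtgac
Such likeness was not particular to ATP6V1E1. Among 49 other members 8 had fewer mismatches with PHF19, 32 had as many and 9 had more, over a range of 2 to 5. The longest run shared with PHF19 was 12 bases in ATP6V1E1 and 11 to 15 bases in the others. Whether ATP6V1E1 fell through the loss of PHF19 or through the siRNAs acting on its own transcript was not tested.

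Levels of different genes were compared per kilobase of transcript. In siNT libraries of MDA-MB-436, ATP6V1E1 stood at 114%, 99.7% and 92.1% of the median of 7 other V1 subunits (A, B2, C1, D, F, G1 and H) in the same library. After siPHF19 it stood at 10.3%, 11.9% and 9.67%. The mean went from 102 ± 11.3% to 10.6 ± 1.15% (SD, n = 3). In siNT libraries of BoM-1833 the shares were 199%, 185% and 189% of that median, and they were 39.0%, 40.5% and 36.2% after siPHF19. There the mean went from 191 ± 7.19% to 38.5 ± 2.16% (SD, n = 3). In both lines the subunit had thus been near or above the typical V1 level and came to lie below each of the 7 others on the scale per kilobase in MDA-MB-436, where ATP6V1C1, the lowest of them, averaged 298 ± 1.24 (SD, n = 3). In BoM-1833 the treated mean of ATP6V1E1, 291 ± 22.0 (SD, n = 3) normalised counts per kilobase, did not stand apart from that of ATP6V1A, 288 ± 24.9. The paralog ATP6V1E2 was lower still, at 46.8 ± 1.96 in siNT of MDA-MB-436 and 57.9 ± 5.09 in siNT of BoM-1833 (SD, n = 3).

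**Figure D1:**
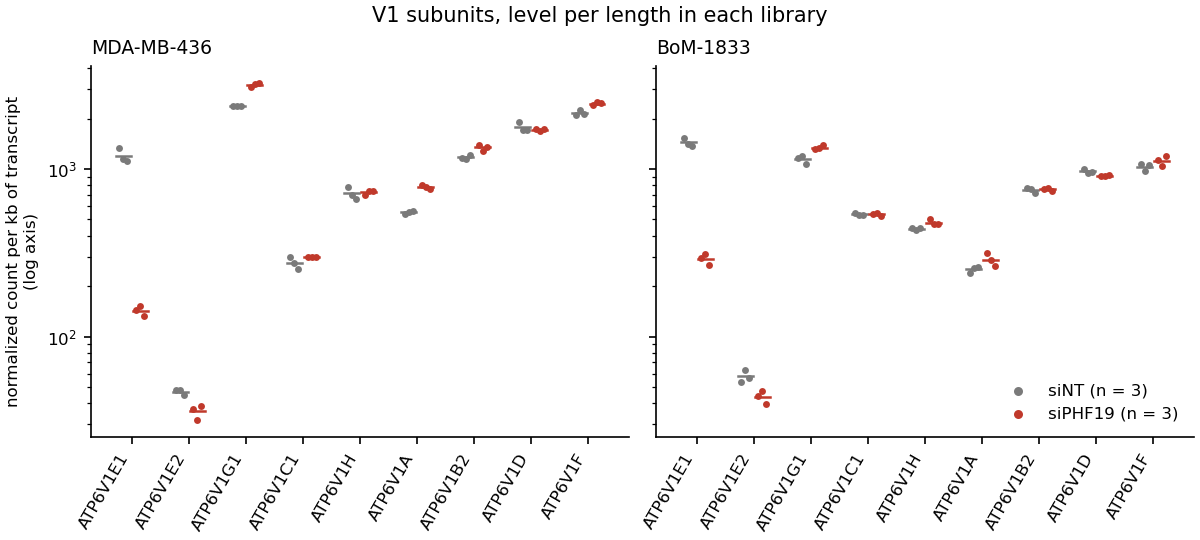
Normalised counts per kilobase of transcript (log axis) for 9 V1 subunits in each library of both lines; points are libraries and short lines group means. ATP6V1E1 drops by about the distance that separates the most and the least abundant of the 7 other widely expressed subunits, and ATP6V1E2 stays the lowest in every group.

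In MDA-MB-436, 9 of the 19 other pump subunits tested rose after siPHF19 and none fell. In BoM-1833, 3 of 20 rose and 1 fell, in a line where fewer of all tested genes were called as well (10.9% against 22.1%). A gene was called higher or lower at an adjusted p under 0.05 in the authors' deposited DESeq2 Wald test (Benjamini-Hochberg over all genes tested). In MDA-MB-436, 18 of 45 tested members other than ATP6V1E1 were called higher, a share of 40.0% beside 10.5% of all tested genes, and 3 were called lower, 6.67% beside 11.5%. Their median log2 fold change was 0.18, and that of all tested genes -0.00. Of these, the pump subunits gave 9 of 19 higher and 0 lower (0 also at an unadjusted p under 0.05 and 0 in edgeR), with a median of 0.19. In BoM-1833, 6 of 46 tested members were called higher beside 5.21% of all tested genes, and 3 lower, 6.52% beside 5.72%, which is near the background. The median there was 0.04. Pump subunits gave 3 of 20 higher and 1 lower in BoM-1833, with a median of 0.09. Members are mostly well expressed, and well expressed genes pass the test more often. Among genes with a mean normalised count of at least 500, a minimum chosen after the data were seen, 18 of 39 members were called higher in MDA-MB-436 beside 14.2% of all, and 3 lower beside 15.2%. At that minimum 6 of 37 members were called higher in BoM-1833 beside 7.03% of all, and 2 lower beside 8.37%.

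The counts of calls changed when 1 library was left out, as did those over all genes. Such a fit has 2 libraries in 1 group. Calls lost to that smaller number cannot be told apart from the part of the library itself. Without siNT replicate 2 of MDA-MB-436, 8 members were called higher, beside 6.24% of all genes. Without siPHF19 replicate 1, 2 or 3 of that line the members called higher were 11, 7 and 9, beside 5.87%, 5.93% and 6.40% of all genes. In BoM-1833, 3 members were called higher without siNT replicate 2 or 3 or any 1 siPHF19 replicate, beside 2.76% to 4.45% of all genes. Members called lower in BoM-1833 numbered 1 without siNT replicate 2 or 3 or siPHF19 replicate 2 or 3.

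**Figure D2:**
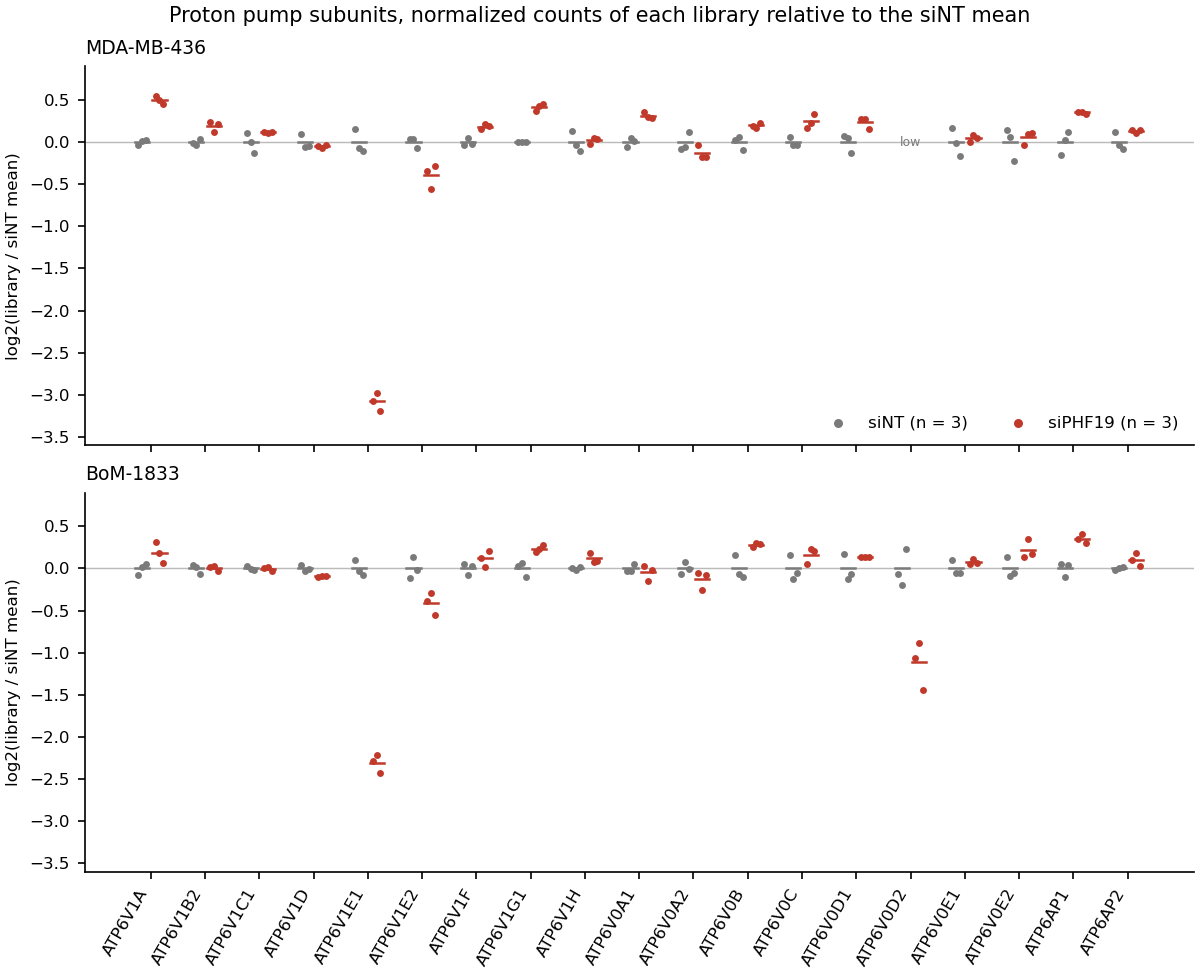
Log2 ratio of the normalised count in each library to the siNT mean of the same line for 19 pump subunits, with siNT in grey, siPHF19 in red and short lines at group means; genes with a siNT mean under 20 are marked low. ATP6V1E1 lies near -3.07 in the MDA-MB-436 panel and near -2.31 in the BoM-1833 panel, and every other subunit drawn lies closer to the control mean. The next largest falls are ATP6V0D2 at -1.10 in BoM-1833 and ATP6V1E2 near -0.40 in both lines, and the largest rises are ATP6V1A at 0.50, ATP6V1G1 at 0.42 and ATP6AP1 at 0.35 in MDA-MB-436.

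Promoters were searched because many members moved the same way in MDA-MB-436. RefSeq promoter windows of 300 bases (GRCh38.p14, 250 before to 50 after the gene start) were found for 40 of 51 members. The other 11 were ATP6V1A, ATP6V1B2, ATP6V1C1, ATP6V1E2, ATP6V1H, ATP6V0D2, ATP6V0E1, CTSB, HEXA, LAMP2 and PSAP. The core CACGTG reads the same on both strands. It was present in 10 of 40 members, in 12.4% of genes tested in at least 1 line and in 8.77% of all 27305 genes with a window. The longer palindrome TCACGTGA, which contains the core, was in 6 of 40 members, against 2.15% of tested genes and 1.18% of all. The full GTCACGTGAC was in ATP6V1G1, GAA and MCOLN1, 3 of 40 members, against 0.813% of tested genes and 0.421% of all. Among members with a window other than ATP6V1E1, 6 of 14 called higher in at least 1 line held the core, 0 of 3 called lower, and 4 of 22 called in neither. A match describes letters in a window and is not a measured binding site. The windows of 6 members called higher in at least 1 line and of the 2 uncalled members with the full palindrome are shown with the core in capitals, so that like flanks can be seen in called and uncalled genes.
ATP6V1G1, chr9:114587699-114587728, plus strand: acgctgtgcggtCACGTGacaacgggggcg
ATP6V0B, chr1:43974891-43974920, plus strand: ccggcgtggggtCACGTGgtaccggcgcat
ATP6V0D1, chr16:67481199-67481228, minus strand: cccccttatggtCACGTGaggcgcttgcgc
LAMP1, chr13:113297199-113297228, plus strand: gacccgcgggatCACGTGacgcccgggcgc
NEU1, chr6:31862930-31862959, minus strand: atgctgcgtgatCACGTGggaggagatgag
CTSA, chr20:45891298-45891327, plus strand: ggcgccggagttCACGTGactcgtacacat
GAA, chr17:80101538-80101567, plus strand: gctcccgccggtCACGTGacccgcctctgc
MCOLN1, chr19:7522598-7522627, plus strand: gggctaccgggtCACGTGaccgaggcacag
LAMP1 held the core at 6 places in its window. No CACGTG was found in the windows of ATP6V1E1, TPP1, LIPA or NPC2.

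The other isoform of subunit E did not rise. ATP6V1E2 counted 95.0, 94.6 and 88.1 in siNT and 73.0, 62.9 and 76.0 in siPHF19 libraries of MDA-MB-436. It counted 106, 125 and 113 and 87.4, 93.2 and 78.1 in BoM-1833. In both lines all treated libraries were below all controls, as for 21.1% of those tested in MDA-MB-436 and, for BoM-1833, 15.7%. The authors' deposited table gives, on the log2 scale, for MDA-MB-436 -0.40 (SE 0.22, Wald adjusted p = 0.193) and for BoM-1833 -0.41 (SE 0.21, Wald adjusted p = 0.237), so neither difference was called. The coding sequences of the E isoforms agree at 77.8% of aligned bases and the longest run the transcripts share is 20 bases. Whether reads of 1 isoform were assigned to the other was not tested.

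ATP6V1G1, the partner of subunit E in each peripheral stalk, rose in both lines. Its normalised counts in MDA-MB-436 were 2577, 2585 and 2580.4 in siNT and 3343, 3459 and 3522 in siPHF19 libraries. Its BoM-1833 libraries had 1261, 1286 and 1153 in siNT and 1414, 1448 and 1493 in siPHF19. The treated libraries lay above all controls in both lines, as for 21.1% of those tested in MDA-MB-436 and, for BoM-1833, 15.3%, and the treated mean was 1.33 times and 1.18 times the control mean. The authors' deposited table gives 0.42 (SE 0.06, Wald adjusted p = 1.42e-09) and 0.23 (SE 0.08, Wald adjusted p = 0.0246) on the log2 scale for MDA-MB-436 and BoM-1833. In MDA-MB-436 the call held in each fit without 1 library. In BoM-1833 the ATP6V1G1 call was lost without siNT replicate 2 or 3 or siPHF19 replicate 1, 2 or 3 (adjusted p 0.0527 to 0.213).

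The subunits that join the stalks to V0 did not pass the test. ATP6V1C1 counted 1670.0, 1550.1 and 1416 in siNT and 1675, 1666 and 1680.3 in siPHF19 libraries of MDA-MB-436, where the treated libraries lay at the upper end of the controls. Its BoM-1833 counts were 3083, 2996 and 2989 and 3022, 3055 and 2959.9, with the groups overlapping. In the authors' deposited table its log2 fold changes were 0.11 (SE 0.08, Wald adjusted p = 0.349) and -0.01 (SE 0.06, Wald adjusted p = 0.983). ATP6V1H, which regulates the pump as well as joining it, had 1569.6, 1407 and 1338 in siNT and 1414, 1482 and 1479 in siPHF19 libraries of MDA-MB-436. In BoM-1833 it had 888, 873 and 897 and 1005, 938 and 943. The BoM-1833 groups of ATP6V1H did not overlap, those of MDA-MB-436 did, and the authors' deposited table gives 0.02 (SE 0.08, Wald adjusted p = 0.901) and 0.12 (SE 0.08, Wald adjusted p = 0.440) on the log2 scale.

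In MDA-MB-436 the catalytic subunit showed the largest rise among the V1 genes that had an adjusted p. ATP6V1A, which binds and splits ATP, counted 2485, 2555 and 2572 in siNT and 3706, 3589 and 3472 in siPHF19 libraries of MDA-MB-436. In BoM-1833 it counted 1101, 1179 and 1202 and 1440.2, 1313 and 1212. Treated libraries lay above all controls in both lines, by a wide gap in MDA-MB-436 (1.41 times the mean) and by a narrow one in BoM-1833 (1.14 times). The authors' deposited table gives 0.50 (SE 0.06, Wald adjusted p = 6.20e-13) in MDA-MB-436, a rise, and 0.19 (SE 0.08, Wald adjusted p = 0.148) in BoM-1833, which was not called. The MDA-MB-436 call held in each fit without 1 library.

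ATP6V1B2, the widely expressed isoform of the subunit that alternates with A in the V1 ring, had 3366, 3308 and 3479 in siNT and 4003, 3684 and 3918 in siPHF19 libraries of MDA-MB-436. Its BoM-1833 counts were 2228, 2198 and 2077 and 2185, 2206 and 2123. It rose in MDA-MB-436, where the groups did not overlap, and showed overlapping groups in the other line. The authors' deposited table gives 0.19 (SE 0.07, Wald adjusted p = 0.0211) and 0.00 (SE 0.07, Wald adjusted p = 0.994). The call of ATP6V1B2 was lost without siNT replicate 2 or siPHF19 replicate 1, 2 or 3 (adjusted p 0.0781 to 0.245). ATP6V1F, part of the central rotor, also passed in MDA-MB-436, at 0.18 (SE 0.07, Wald adjusted p = 0.0472) in the authors' deposited table. That call of ATP6V1F was lost without siNT replicate 1, 2 or 3 or siPHF19 replicate 1, 2 or 3 (adjusted p 0.0849 to 0.315). Its log2 fold change in these fits was 0.17 to 0.21. For BoM-1833 the authors' deposited table gives 0.12 (SE 0.09, Wald adjusted p = 0.524) for ATP6V1F. ATP6V1D, the rotor shaft, did not pass, with -0.05 (SE 0.07, Wald adjusted p = 0.693) and -0.09 (SE 0.07, Wald adjusted p = 0.478) in the authors' deposited table. The tissue-restricted isoforms were scarce: ATP6V1B1, ATP6V1C2, ATP6V1G2 and ATP6V1G3 averaged at most 22.2 normalised counts in a group. Only ATP6V1C2 in MDA-MB-436 and ATP6V1G2 in BoM-1833 had an adjusted p, and neither passed.

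In the V0 sector, ATP6V0B, a proteolipid of the proton-carrying ring, rose in both lines. It counted 3348, 3442 and 3098 in siNT and 3774, 3712 and 3858 in siPHF19 libraries of MDA-MB-436. It counted 1338, 1147 and 1124 and 1431, 1484 and 1468 in BoM-1833. Each treated library exceeded each control, by 1.15 and 1.21 times between the means. On the log2 scale the authors' deposited table gives for MDA-MB-436 0.20 (SE 0.07, Wald adjusted p = 0.0226) and for BoM-1833 0.28 (SE 0.08, Wald adjusted p = 0.0116). Its call was lost in MDA-MB-436 without siNT replicate 2 or 3 or siPHF19 replicate 1, 2 or 3 (adjusted p 0.0612 to 0.201), and in BoM-1833 without siNT replicate 2 or 3 or siPHF19 replicate 1, 2 or 3 (adjusted p 0.0563 to 0.129). Of its exon bases, 302 are shared with an antisense transcript, and the use of strand in counting is not given in the sources used here.

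ATP6V0A1, the isoform of the large a subunit that forms the path of the protons, rose in MDA-MB-436. There it counted 504, 543 and 528 in siNT and 670.5, 644 and 640.0 in siPHF19 libraries, without overlap. The BoM-1833 counts of ATP6V0A1 were 1482, 1486 and 1568 and 1543, 1367 and 1492, which overlapped. The authors' deposited table gives 0.31 (SE 0.10, Wald adjusted p = 0.00823) and -0.04 (SE 0.08, Wald adjusted p = 0.836). The ATP6V0A1 call was lost without siNT replicate 2 or siPHF19 replicate 1, 2 or 3 (adjusted p 0.0688 to 0.127). ATP6V0C, the main proteolipid of the ring, counted 2982, 2789 and 2799 in siNT and 3199, 3355 and 3608 in siPHF19 libraries of MDA-MB-436. In BoM-1833 it counted 2178, 1785 and 1875 and 2010.4, 2279.9 and 2240.4. ATP6V0C rose in MDA-MB-436 with no overlap, and its BoM-1833 groups overlapped because siNT replicate 1 lay among the treated libraries. The authors' deposited table gives 0.25 (SE 0.07, Wald adjusted p = 0.00649) and 0.16 (SE 0.08, Wald adjusted p = 0.256). The MDA-MB-436 call of ATP6V0C was lost without siNT replicate 2 or siPHF19 replicate 2 or 3 (adjusted p 0.0764 to 0.149), and a rise in BoM-1833 was called without siNT replicate 1 (adjusted p 0.00388). ATP6V0C shares 862 exon bases on the same strand with the annotated gene AC093525.2, whose part in the result was not tested.

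ATP6V0D1, which couples the rotor to the proteolipid ring, also passed in MDA-MB-436, at 0.24 (SE 0.09, Wald adjusted p = 0.0337) in the authors' deposited table. That call was lost without siNT replicate 2 or 3 or siPHF19 replicate 1, 2 or 3 (adjusted p 0.0764 to 0.235). The authors' deposited table for BoM-1833 gives 0.13 (SE 0.09, Wald adjusted p = 0.397) for ATP6V0D1, and the gene was called higher there without siNT replicate 1 (adjusted p 0.0106). Its paralog ATP6V0D2, known from osteoclasts and kidney, was at 0 in all 6 MDA-MB-436 libraries. A count of 0 in 1 library taken alone allows an expected count of up to 3 reads, and all 6 together allow less. In BoM-1833 ATP6V0D2 counted 43.7, 39.7 and 53.4 in siNT and 21.9, 24.8 and 16.8 in siPHF19 libraries, so all treated libraries were lower. The authors' deposited table gives -1.10 (SE 0.37, Wald adjusted p = 0.0284), the only fall of a pump subunit other than ATP6V1E1 that was called in either line. It rests on few reads and was lost without siNT replicate 2 or siPHF19 replicate 1, 2 or 3 (adjusted p 0.0782 to 0.193), and the 2 other such fits gave it no adjusted p. Of the osteoclast genes read beside it, ACP5 had at most 6.68 normalised counts in a library and DCSTAMP and OCSTAMP were at 0. CTSK averaged 28.6 ± 3.87 in siNT and 19.4 ± 4.72 in siPHF19 of BoM-1833 (SD, n = 3), in the range of ATP6V0D2, and was not called, at -0.56 (SE 0.42, Wald adjusted p = 0.505) in the authors' deposited table. Their part in the result was not tested.

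The remaining V0 rows did not pass the test in either line. The authors' deposited table gives log2 fold changes of -0.12 and -0.13 for ATP6V0A2, 0.04 and 0.07 for ATP6V0E1, and 0.06 and 0.22 for ATP6V0E2, in MDA-MB-436 and BoM-1833. ATP6V0A4, the kidney isoform of the a subunit, averaged 5.00 and 90.8 normalised counts in the siNT groups of MDA-MB-436 and BoM-1833. It had 12.3 and 73.6 after siPHF19, without overlap in either line, and the log2 fold change of the authors' deposited table stands for a ratio of 2.45 (adjusted p = 0.174) in the first line and 0.808 (adjusted p = 0.495) in the other. The first ratio is the largest of any tested member and rests on few reads. ATP6V0E2-AS1, which shares 864 exon bases with ATP6V0E2 on the other strand, was at 0.49 and -0.17 (adjusted p = 0.0648 and 0.793) in the authors' deposited table. The readthrough ATP6V1G2-DDX39B cannot be told apart from DDX39B over 2079 shared exon bases and ranged from 0 to 66.1 normalised counts across BoM-1833 libraries.

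Of the accessory subunits, ATP6AP1 rose by the same factor in both lines. This glycoprotein guides the assembly of V0 and stays in the finished pump. In MDA-MB-436 ATP6AP1 counted 3804, 4284 and 4597 in siNT and 5417, 5434 and 5341 in siPHF19 libraries. In BoM-1833 ATP6AP1 counted 1990.1, 1792 and 1984 and 2440.5, 2548 and 2371. Treated libraries were above all controls, by 1.28 and 1.28 times between the means. The authors' deposited table gives 0.35 (SE 0.08, Wald adjusted p = 1.40e-04) and 0.35 (SE 0.07, Wald adjusted p = 2.12e-05), and the calls held in each fit without 1 library. ATP6AP2, also known as the prorenin receptor, did not pass, with 0.13 (SE 0.07, Wald adjusted p = 0.189) and 0.11 (SE 0.07, Wald adjusted p = 0.455) in the authors' deposited table; it was called higher in MDA-MB-436 without siNT replicate 1 (adjusted p 0.00133).

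Among the genes of the lysosomal lumen, LIPA rose most steadily. It encodes lysosomal acid lipase, which frees cholesterol and fatty acids from esters taken up in lipoproteins. LIPA counted 895, 932 and 993 in siNT and 1380.2, 1373 and 1354 in siPHF19 libraries of MDA-MB-436. It counted 2781, 2979.6 and 2897 and 4687, 4767 and 4505 in BoM-1833, and groups were far apart in both lines. In MDA-MB-436 the mean went from 940.2 ± 49.5 to 1369 ± 13.6 and in BoM-1833 from 2886 ± 99.9 to 4653 ± 135 (SD, n = 3). The authors' deposited table gives for MDA-MB-436 0.54 (SE 0.08, Wald adjusted p = 4.89e-10) and for BoM-1833 0.69 (SE 0.06, Wald adjusted p = 3.47e-27), and both calls held in each fit without 1 library. LIPA shares 65 exon bases on the opposite strand with the interferon gene IFIT2, for which the authors' deposited table gives log2 fold changes of 0.44 (SE 0.13, Wald adjusted p = 0.00417) for MDA-MB-436 and 0.41 (SE 0.08, Wald adjusted p = 2.28e-05) in BoM-1833. Its part in the result was not tested. IFIT2 averaged 592 normalised counts over the MDA-MB-436 libraries and 942 over those of BoM-1833, fewer than LIPA.

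NPC2, the soluble protein that hands cholesterol to NPC1 in the lysosome, also rose in both lines. Its normalised counts in MDA-MB-436 were 1838, 1677 and 1508 in siNT and 1809, 2056 and 2103 in siPHF19 libraries. They were 2790.2, 2513 and 2665 and 3444, 3491 and 3499 in BoM-1833. The groups overlapped in MDA-MB-436, where siNT replicate 1 exceeded siPHF19 replicate 1, and stood apart in BoM-1833 (1.31 times the mean). The authors' deposited table gives 0.25 (SE 0.10, Wald adjusted p = 0.0464) and 0.39 (SE 0.06, Wald adjusted p = 7.49e-08). In MDA-MB-436 the NPC2 call was lost in edgeR (adjusted p = 0.0634) and without siNT replicate 2 or 3 or siPHF19 replicate 2 or 3 (adjusted p 0.116 to 0.258). In BoM-1833 it held throughout.

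NEU1, the lysosomal sialidase, rose in both lines as well. It counted 1179, 1141 and 1106 in siNT and 1591, 1589 and 1633 in siPHF19 libraries of MDA-MB-436. It counted 1366, 1234 and 1300.3 and 1524, 1631 and 1482 in BoM-1833. No treated library reached down to a control, and the ratios of the means were 1.40 and 1.19. The authors' deposited table gives 0.49 (SE 0.07, Wald adjusted p = 1.58e-09) and 0.25 (SE 0.08, Wald adjusted p = 0.0150). The BoM-1833 call of NEU1 was lost without siNT replicate 2 or 3 or siPHF19 replicate 1, 2 or 3 (adjusted p 0.0516 to 0.225).

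TPP1 and PSAP rose in MDA-MB-436. TPP1, a peptidase that trims tripeptides from protein ends, counted 681, 872 and 923 in siNT and 1362, 1357 and 1295 in siPHF19 libraries there, the largest rise of any member called in that line. In BoM-1833 TPP1 counted 1807, 1922 and 2332 and 2254, 1969.7 and 1985. Groups overlapped in BoM-1833 and were apart by a wide gap in MDA-MB-436. The authors' deposited table gives 0.70 (SE 0.11, Wald adjusted p = 1.84e-08) and 0.04 (SE 0.09, Wald adjusted p = 0.895). The TPP1 call held in each MDA-MB-436 fit without 1 library. TPP1 shares 756 exon bases on the same strand with the annotated transcript AC091564.7, whose part in the result was not tested. PSAP, the precursor of the saposins that present lipids to hydrolases, had 32371, 33176 and 30992 normalised counts in siNT and 35294, 35946 and 36709.6 in siPHF19 libraries of MDA-MB-436. In BoM-1833 PSAP had 23092, 21078 and 23747 and 23699, 23547 and 21803. The MDA-MB-436 groups did not overlap though the shift was small, and those of BoM-1833 did. The authors' deposited table gives 0.16 (SE 0.06, Wald adjusted p = 0.0252) and 0.02 (SE 0.06, Wald adjusted p = 0.896). The PSAP call was lost in edgeR (adjusted p = 0.0652) and without siNT replicate 2 or siPHF19 replicate 1, 2 or 3 (adjusted p 0.129 to 0.253). The glycosidases GAA, GLA, GLB1 and HEXA, which clear glycogen and glycolipids, were called in neither line, and in the authors' deposited table their log2 values ranged from -0.12 to 0.10 in the first line, MDA-MB-436, and between -0.16 and 0.04 in BoM-1833.

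The cathepsins moved apart from each other in MDA-MB-436. CTSL, a cysteine protease of the lysosome, counted 8707, 6949 and 6610.1 in siNT and 4725, 5004 and 4944 in siPHF19 libraries, a fall to 65.9% of the mean. In BoM-1833, where CTSL was much less abundant, it counted 877, 866 and 841 and 829, 857 and 818. The MDA-MB-436 groups did not overlap and those of BoM-1833 did. The authors' deposited table gives -0.60 (SE 0.10, Wald adjusted p = 6.77e-08) and -0.05 (SE 0.08, Wald adjusted p = 0.839). CTSB, a related cysteine protease, counted 9055, 9213 and 9511 in siNT and 7607, 7663 and 7713 in siPHF19 libraries of MDA-MB-436. In BoM-1833 CTSB counted 3222, 3045 and 3383 and 2947, 2889 and 2835. Treated libraries were below all controls in both lines, and the fall was called in MDA-MB-436. The authors' deposited table gives -0.27 (SE 0.06, Wald adjusted p = 1.79e-05) and -0.15 (SE 0.06, Wald adjusted p = 0.114). The MDA-MB-436 calls of CTSL and CTSB held in each fit without 1 library.

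CTSA, the protective protein that keeps NEU1 and beta-galactosidase stable, rose in MDA-MB-436. It counted 3333, 3385 and 3609 in siNT and 4037, 4196 and 4088 in siPHF19 libraries there. BoM-1833 had 3958, 3670.3 and 3903 and 4016, 4348 and 4272 normalised counts of CTSA, with treated libraries above all controls in both lines. The authors' deposited table gives 0.26 (SE 0.06, Wald adjusted p = 9.08e-04) and 0.13 (SE 0.06, Wald adjusted p = 0.186). In MDA-MB-436 the CTSA call was lost without siNT replicate 2 or siPHF19 replicate 2 (adjusted p 0.0608 to 0.0666), and in BoM-1833 it was made without siNT replicate 1 (adjusted p 0.0319). CTSD and CTSZ were called in neither line; the authors' deposited table gives 0.03 (SE 0.06, Wald adjusted p = 0.804) and 0.03 (SE 0.06, Wald adjusted p = 0.837) for CTSD and -0.29 (SE 0.12, Wald adjusted p = 0.0803) and 0.08 (SE 0.06, Wald adjusted p = 0.540) for CTSZ. In MDA-MB-436 CTSZ was called lower without siNT replicate 3 (adjusted p 5.18e-05). In BoM-1833 0 of 5 cathepsins were called in the deposited DESeq2 test, beside 10.9% of all tested genes. In edgeR 0 were called there, and at an unadjusted p under 0.05 there were 1 higher and 1 lower.

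**Figure D3:**
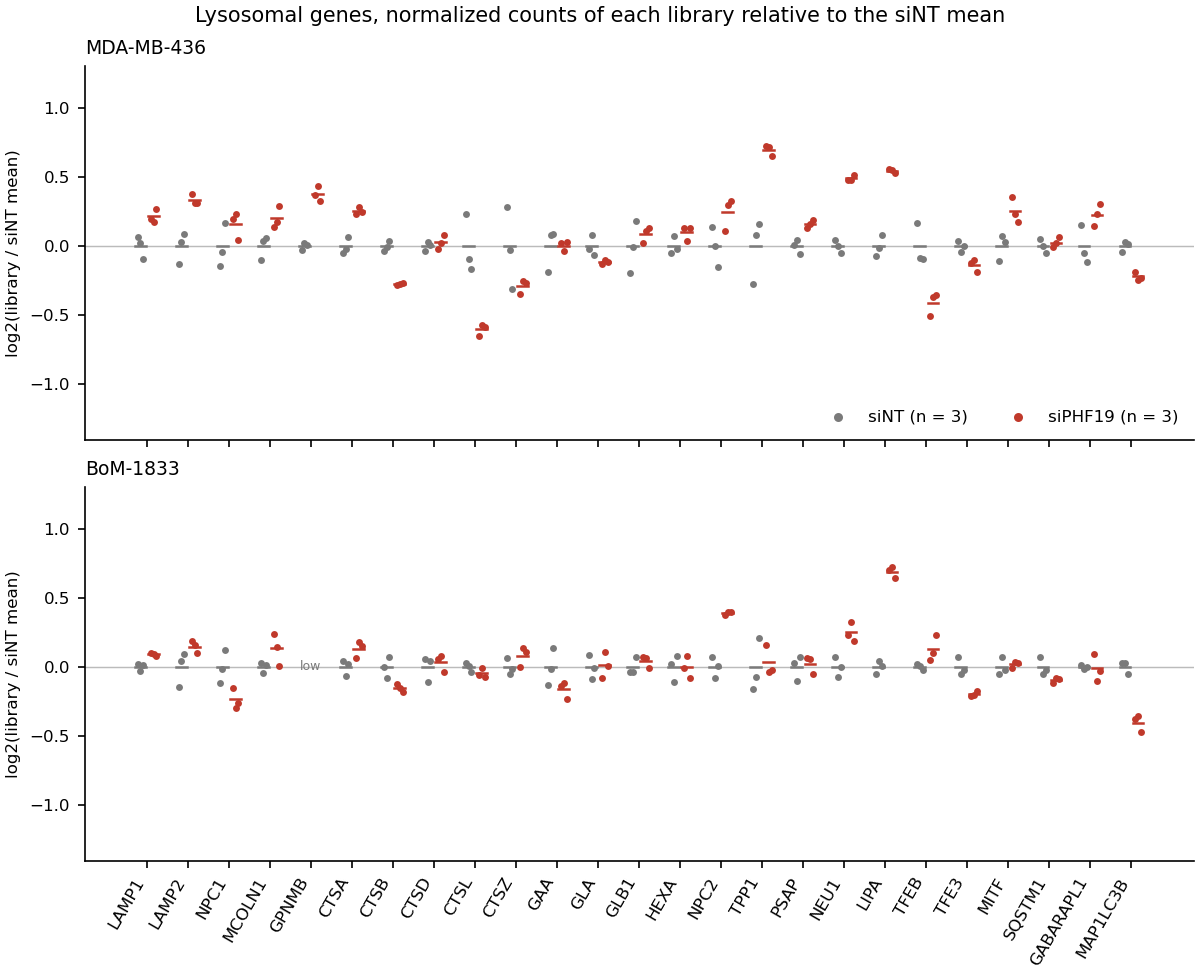
Log2 ratio of the normalised count in each library to the siNT mean of the same line for the 25 named lysosomal genes, drawn as for the pump subunits. In MDA-MB-436 TPP1, LIPA and NEU1 stand highest and CTSL lowest; in BoM-1833 LIPA and NPC2 stand highest and MAP1LC3B lowest of the genes with points there, which leave out GPNMB with a siNT mean under 20.

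In the lysosomal membrane, LAMP1 and LAMP2, the heavily glycosylated proteins that line it, rose in MDA-MB-436. LAMP1 counted 12117, 11776 and 10855 in siNT and 13293, 13054 and 13980.2 in siPHF19 libraries of that line. Its BoM-1833 counts were 4023, 3884 and 4012 and 4255, 4248 and 4194. LAMP1 groups did not overlap in either line, but the gap in BoM-1833 was small. The authors' deposited table gives 0.21 (SE 0.07, Wald adjusted p = 0.00985) and 0.09 (SE 0.06, Wald adjusted p = 0.369) for LAMP1. Its call was lost without siNT replicate 2 or siPHF19 replicate 1, 2 or 3 (adjusted p 0.0675 to 0.161). LAMP2, also needed for chaperone-mediated autophagy, counted 2927, 3275 and 3401 in siNT and 4159, 3971 and 3969 in siPHF19 libraries of MDA-MB-436. BoM-1833 had 4225, 4829 and 4981 and 5328, 5209 and 5005 for LAMP2, again with treated libraries above all controls. The authors' deposited table gives 0.33 (SE 0.08, Wald adjusted p = 1.68e-04) and 0.15 (SE 0.07, Wald adjusted p = 0.182) for LAMP2, and the MDA-MB-436 call held in each fit without 1 library.

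NPC1, the membrane transporter that exports cholesterol from the lysosome, fell in BoM-1833. There it counted 4144, 4437 and 4890.1 in siNT and 4032, 3658 and 3755 in siPHF19 libraries, with all treated libraries lower. In MDA-MB-436 NPC1 counted 1396, 1501 and 1735 and 1773, 1811 and 1594, and the groups overlapped. The authors' deposited table gives for MDA-MB-436 0.16 (SE 0.10, Wald adjusted p = 0.248) and for BoM-1833 -0.23 (SE 0.07, Wald adjusted p = 0.0145). The BoM-1833 call was lost without siNT replicate 2 or 3 or siPHF19 replicate 2 or 3 (adjusted p 0.0600 to 0.186), and a rise in MDA-MB-436 was called without siNT replicate 3 (adjusted p 0.0176). NPC1 shares 604 exon bases with RMC1 on the opposite strand. GPNMB, a glycoprotein of melanosomes and lysosomes, counted 437, 450.3 and 446 in siNT and 575, 599.7 and 558 in siPHF19 libraries of MDA-MB-436, all treated libraries higher. It stayed at or under 18.4 normalised counts in BoM-1833 and had no adjusted p there. The authors' deposited table gives 0.38 (SE 0.10, Wald adjusted p = 0.00147) for GPNMB in MDA-MB-436, a call that was lost without siPHF19 replicate 2 (adjusted p 0.0711). MCOLN1, the calcium channel of the lysosome, was called in neither line, at 0.20 (SE 0.11, Wald adjusted p = 0.191) and 0.14 (SE 0.11, Wald adjusted p = 0.522) in the authors' deposited table.

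None of the MiT/TFE factors, which drive lysosomal genes, was called. TFEB averaged 118 ± 12.5 in siNT and 88.6 ± 5.00 in siPHF19 of MDA-MB-436 and 165 ± 2.29 and 180.4 ± 11.7 in BoM-1833 (SD, n = 3). The authors' deposited table gives -0.41 (SE 0.20, Wald adjusted p = 0.133) and 0.13 (SE 0.16, Wald adjusted p = 0.731) for TFEB, -0.13 (SE 0.07, Wald adjusted p = 0.159) and -0.20 (SE 0.07, Wald adjusted p = 0.0503) for TFE3, and 0.25 (SE 0.10, Wald adjusted p = 0.0638) and 0.02 (SE 0.08, Wald adjusted p = 0.932) for MITF. The DESeq2 test thus gave 0 of 3 in each line. At an unadjusted p under 0.05 there were 1 higher and 1 lower in MDA-MB-436 and 1 lower in BoM-1833, and edgeR called 1 higher in MDA-MB-436 and 1 lower in BoM-1833. These are transcript levels; the activity of these factors is set mainly by phosphorylation and was not measured.

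Among the autophagy genes, MAP1LC3B fell in both lines. It encodes LC3B, which is bound to lipid on forming autophagosomes. MAP1LC3B counted 1715, 1803 and 1781 in siNT and 1554, 1493 and 1505 in siPHF19 libraries of MDA-MB-436. BoM-1833 libraries had 2682, 2684 and 2543 in siNT and 2026, 2057 and 1903 in siPHF19. No treated library reached a control in either line, and 85.9% and 75.7% of the siNT means remained. The authors' deposited table gives -0.22 (SE 0.07, Wald adjusted p = 0.0123) and -0.40 (SE 0.07, Wald adjusted p = 9.40e-08). The BoM-1833 call of MAP1LC3B held in each fit without 1 library, and the MDA-MB-436 call was lost without siNT replicate 2 or siPHF19 replicate 1, 2 or 3 (adjusted p 0.102 to 0.192). SQSTM1, the cargo receptor p62, was called in neither line (0.03 (SE 0.06, Wald adjusted p = 0.806) and -0.09 (SE 0.05, Wald adjusted p = 0.330) in the authors' deposited table). GABARAPL1, of the same family as LC3B, was not called either (0.23 (SE 0.09, Wald adjusted p = 0.0550) and -0.01 (SE 0.09, Wald adjusted p = 0.979) in the authors' deposited table), but was called higher in MDA-MB-436 without siNT replicate 1 (adjusted p 4.91e-04).

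**Figure D4:**
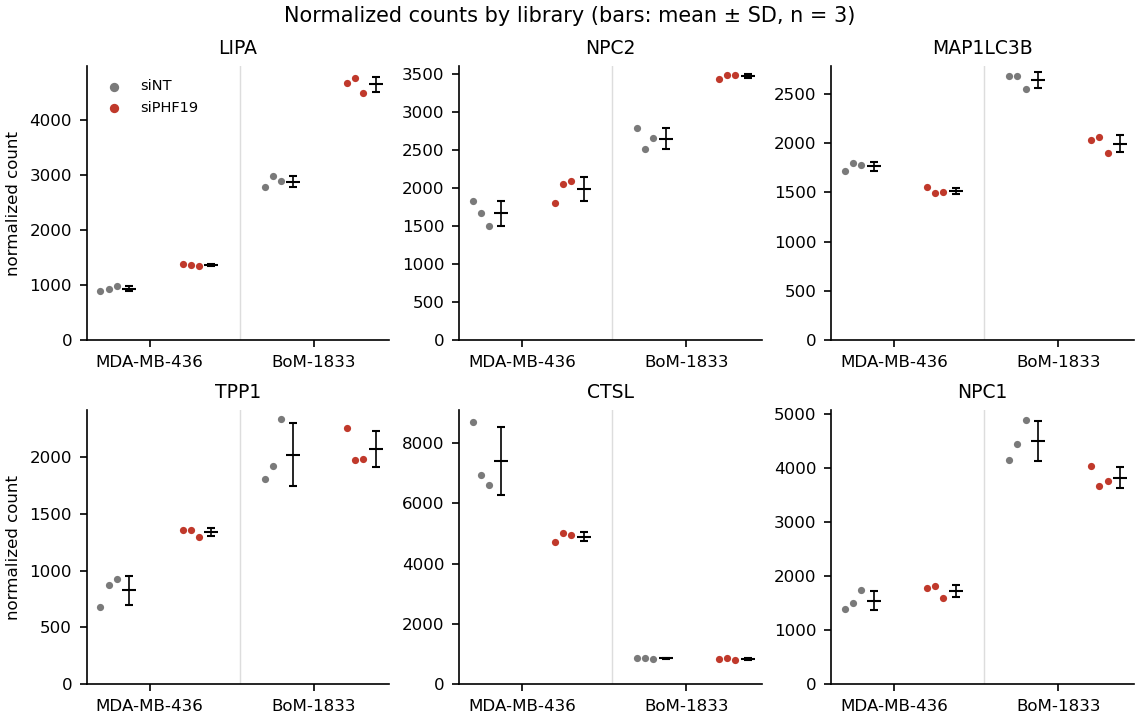
Normalised counts by library for LIPA, NPC2, MAP1LC3B, TPP1, CTSL and NPC1 in both lines (linear axes from 0), with siNT in grey, siPHF19 in red and black bars for the mean ± SD of 3 libraries. LIPA rises and MAP1LC3B falls in both lines, while TPP1 and CTSL separate the groups in MDA-MB-436 and overlap in BoM-1833.

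The change after siPHF19 was then compared between lines gene by gene, as the difference of the log2 fold changes (BoM-1833 minus MDA-MB-436) divided by its standard error. Over 12290 genes tested in both lines, 601, or 4.89%, differed at an adjusted p under 0.05 (z test, Benjamini-Hochberg). Of 43 members tested in both lines other than ATP6V1E1, 3 did, a share near that background: TPP1 by -0.66 (95% interval -0.95 to -0.38, adjusted p = 4.01e-04), CTSL by 0.56 (0.30 to 0.81, adjusted p = 0.00124) and NPC1 by -0.40 (-0.64 to -0.16, adjusted p = 0.0287). TPP1 rose and CTSL fell in MDA-MB-436, with no call in BoM-1833, and NPC1 fell in BoM-1833 with no call in MDA-MB-436. An edgeR interaction term over all 12 libraries called 4 members: TPP1 (adjusted p = 0.0170), CTSL (0.0126), ATP6V0A1 and ATP6V0A4, but not NPC1 (0.0611). Without any 1 library TPP1 and CTSL were called each time, while NPC1 was lost without siNT replicate 1 or 2 or siPHF19 replicate 1 or 2 of MDA-MB-436, and without siNT replicate 2 or 3 or siPHF19 replicate 2 or 3 of BoM-1833 (adjusted p 0.0537 to 0.185). Leaving out siNT replicate 1 of BoM-1833 raised the members that differed to 6, and leaving out siNT replicate 3 of MDA-MB-436 to 5. ATP6V1A, at -0.31 (-0.52 to -0.10, adjusted p = 0.0634), and ATP6V0A1, at -0.35 (-0.59 to -0.11, adjusted p = 0.0678), missed the threshold, though their intervals, which are not adjusted, did not include 0. For the other pump subunits called in MDA-MB-436 the interval of the difference included 0, except ATP6V1B2 (-0.19, -0.37 to -0.01, adjusted p = 0.284). ATP6AP1 changed by nearly the same amount, with a difference of -0.00 (-0.21 to 0.21). ATP6V1E1 itself differed by 0.76 (SE 0.15) and fell less in BoM-1833, given without a test.

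**Figure D5:**
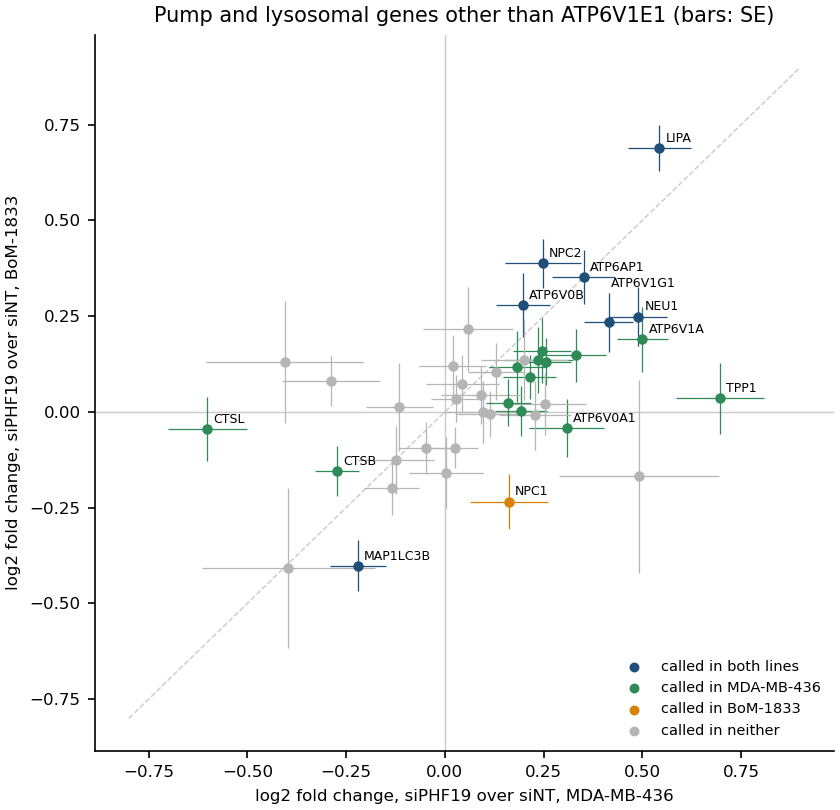
Log2 fold change after siPHF19 in MDA-MB-436 (horizontal) and BoM-1833 (vertical) for 42 members tested in both lines other than ATP6V1E1; bars are SE, the dashed line marks equal change and ATP6V0A4, with an SE above 0.3, is left out. LIPA, NPC2, ATP6AP1, NEU1, ATP6V1G1 and ATP6V0B lie up and to the right, and TPP1, CTSL and NPC1 lie off the line of equal change.

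A further 97 genes of the same organelle, in 5 lists, were read from the same tests. In MDA-MB-436, 19 of 96 tested were called higher and 8 lower, beside 10.5% and 11.5% of all tested genes. In BoM-1833, 6 of 95 were called higher and 4 lower, beside 5.21% and 5.72%. Their medians were 0.14 and 0.05. The count in MDA-MB-436 changed when 1 library was left out, as did that over all genes. There 8 were called higher without siNT replicate 2, beside 6.24% of all genes. Without siPHF19 replicates 1, 2 and 3 they were 12, 9 and 6, beside 5.87%, 5.93% and 6.40%. Factors that assemble or regulate the pump, among them the V0 isoform TCIRG1, gave 0 of 12 in each line in the deposited DESeq2 test and 0 in edgeR. At an unadjusted p under 0.05 there were 2 higher and 1 lower of them in MDA-MB-436 and 1 lower in BoM-1833.

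Other hydrolases and cofactors gave 5 of 29 higher and 3 lower in MDA-MB-436 and 3 higher and 1 lower in BoM-1833. Of all tested genes, 10.5% were called higher and 11.5% lower in MDA-MB-436, and 5.21% and 5.72% in BoM-1833. LGMN, the asparaginyl protease legumain that processes cathepsins, was called lower in both lines. It counted 1023, 1053 and 929 in siNT and 709, 697 and 749 in siPHF19 libraries of MDA-MB-436. It counted 2270.3, 2109 and 2234 and 1974, 1872 and 1916 in BoM-1833, and groups did not overlap. The authors' deposited table gives -0.48 (SE 0.09, Wald adjusted p = 2.58e-06) and -0.20 (SE 0.07, Wald adjusted p = 0.0323) for LGMN. Its BoM-1833 call was lost without siNT replicate 2 or 3 or siPHF19 replicate 1, 2 or 3 (adjusted p 0.0502 to 0.257). Other membrane and sorting genes gave 5 of 20 higher and 1 lower in MDA-MB-436 and 2 higher and 2 lower in BoM-1833. CD164, the sialomucin endolyn of late endosomes and lysosomes, fell most. Its counts were 5493, 5615 and 5981 in siNT and 2300.3, 2364 and 2236 in siPHF19 libraries of MDA-MB-436. They were 2514, 2711 and 2813 and 1505, 1650.1 and 1397 in BoM-1833, with all treated libraries far below the controls. The authors' deposited table gives -1.31 (SE 0.07, Wald adjusted p = 7.05e-81) and -0.82 (SE 0.08, Wald adjusted p = 3.93e-23) for CD164.

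Genes that dock mTORC1, the growth kinase that senses amino acids at the lysosome, gave 4 of 17 higher and 2 lower in MDA-MB-436. In BoM-1833 they gave 0 calls in the deposited DESeq2 test, with 3 higher at an unadjusted p under 0.05 and 1 higher in edgeR. The shares of all tested genes called higher and lower were 10.5% and 11.5% in MDA-MB-436, and 5.21% and 5.72% in BoM-1833. FNIP2, a partner of folliculin, counted 459.5, 512 and 504 in siNT and 827, 760.4 and 816 in siPHF19 libraries of MDA-MB-436, without overlap. The authors' deposited table gives 0.70 (SE 0.10, Wald adjusted p = 3.92e-11) and 0.22 (SE 0.10, Wald adjusted p = 0.174) for FNIP2. RRAGD, a Rag GTPase, rose by less, with 0.27 (SE 0.08, Wald adjusted p = 0.00378) for MDA-MB-436 by the authors' deposited table, and was at -0.03 (SE 0.11, Wald adjusted p = 0.923) in BoM-1833. The RRAGD call was lost without siNT replicate 2 or siPHF19 replicate 1, 2 or 3 (adjusted p 0.0607 to 0.0875). Other autophagy genes gave 5 of 18 higher and 2 lower in MDA-MB-436 and 1 of 17 higher and 1 lower in BoM-1833. BECN1, a core part of the lipid kinase complex that starts autophagosomes, was called lower in both lines, with -0.27 (SE 0.09, Wald adjusted p = 0.0160) and -0.23 (SE 0.07, Wald adjusted p = 0.0146) in the authors' deposited table. The BECN1 call was lost in MDA-MB-436 without siNT replicate 1 or 2 or siPHF19 replicate 1, 2 or 3 (adjusted p 0.0821 to 0.144), and in BoM-1833 without siPHF19 replicate 1, 2 or 3 (adjusted p 0.0842 to 0.120).

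The 6 letters AAACTG, picked with earlier results of these data known, were counted on the sense strand of 3′ UTRs. The PHF19 transcript holds them in 2 places, 1 of them inside the coding window shown above. The ATP6V1E1 transcript holds them nowhere. Of genes called lower in MDA-MB-436, 51.1% had AAACTG in the 3′ UTR, against 45.1% of genes called higher and 41.8% of tested genes not called. In BoM-1833 the shares were 62.6%, 36.9% and 42.9%. Longer 3′ UTRs hold more matches, and the median length was 1009 bases in genes called lower, 1724 in genes called higher and 1079 in genes not called in MDA-MB-436. For BoM-1833 it was 1574, 1274 and 1107 bases. Among members other than ATP6V1E1, 1 of 3 called lower had a match in each line, and in both lines it was MAP1LC3B, with 3 matches in 1682 bases. CTSB, CTSL, NPC1 and ATP6V0D2 had none. Members that rose held it too: 6 of 18 called higher in MDA-MB-436 and 1 of 6 in BoM-1833, NPC2, with 1 match. The first match of MAP1LC3B, which fell, and that of NPC2, which rose, are shown with AAACTG in capitals. The letters just after AAACTG are alike in both, while those before it mostly differ.
MAP1LC3B: aagcagaaAAACTGagctccaa
NPC2: tgtagcagAAACTGagctccgg
A match says only that these letters are present, and whether a small RNA acts there was not tested.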

How the data were processed

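Libraries were made from total RNA with a stranded mRNA kit, per the labels' protocols. The submitters' processing notes name STAR, RSEM 1.3.1, DESeq2 1.46.0 and hg38; annotation, filters and use of strand are not given in the sources used here. Values per library are a deposited signal, gene counts divided by 1 size factor per library, and each line was normalised separately. The authors' log2 fold changes, Wald score, p-values and adjusted p-values were used as deposited. Genes without a deposited adjusted p were not tested. The number of library columns of no sample was 0.

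Whole reads, all nonzero values being whole within 0.02, were recovered for alternatives with DESeq2 1.42.0, edgeR 4.0.16 and limma 3.58.1 (R 4.3.3); DESeq2 gave the same 3143 and 1411 calls as deposited. The reads carry no molecular identifiers. Scripts were checked on simulated data. Of 12 replicate pairs the lowest chi-square per degree of freedom was 2.29, so no library copies another. In MDA-MB-436 this value was 5.92 to 21.3 between siNT and 2.57 to 3.35 between siPHF19 libraries. BoM-1833 had 7.84 to 24.1 and 2.29 to 3.45, so siNT libraries differed more from each other in both lines. Positions and transcripts came from GENCODE v29 (GRCh38). Lists named are those of the text. The members, the lists and the sequence letters were chosen with earlier results of these data known. Genes given library by library were ATP6V1E1, ATP6V1E2, ATP6V1G1, ATP6V1C1, ATP6V1H and then called members by the largest absolute Wald statistic up to 25; from each further list up to 3 genes called in both lines in 1 direction, otherwise up to 2 called in 1 line. IFIT2 and marker genes were named outside this rule.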

Additional observations from a re-analysis of the deposited data

Results flagged for a closer look

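For 3 members the change after siPHF19 differed between lines by the z test on the deposited fits, 3 of 43 beside 4.89% of all genes, which is near the background. The difference of log2 fold changes, BoM-1833 minus MDA-MB-436, was -0.66 for TPP1 (adjusted p = 4.01e-04), which was higher in 3 of 3 treated MDA-MB-436 libraries than in any control there. It was 0.56 for CTSL (adjusted p = 0.00124), which was lower in 3 of 3 treated MDA-MB-436 libraries. It was -0.40 for NPC1 (adjusted p = 0.0287), which was lower in 3 of 3 treated BoM-1833 libraries. With the replicate number as a block in the edgeR interaction fit, the adjusted p was 0.0656 for TPP1, 0.0635 for CTSL and 0.191 for NPC1. The siNT libraries of TPP1 and CTSL in MDA-MB-436 spread widely, with an SD of 128 around 825 for TPP1 and of 1126 around 7422 for CTSL.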

How the results depend on the processing

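The tables limit every result to 3 libraries a group, 1 time and 1 mixture of siRNAs. Under edgeR with TMM or DESeq2 size factors, without filters and under limma, counts of members called stayed within 1.5 times of the reported ones. Leaving out 1 library gave 7 to 19 members higher in MDA-MB-436, beside 5.87% to 13.2% of all genes. In BoM-1833 it gave 3 to 9 higher, beside 2.76% to 7.53%, and 1 to 2 lower, beside 3.24% to 9.5%. Between lines, 2 to 6 members differed. For the further lists, leaving out 1 library gave 6 to 24 higher and 4 to 9 lower in MDA-MB-436. For BoM-1833 those lists gave 2 to 8 higher and 1 to 7 lower. At an adjusted p under 0.01, 3 members were higher and 1 lower in BoM-1833, and of the further lists 5 were lower in MDA-MB-436 and 2 higher and 2 lower in BoM-1833. Same-numbered libraries did not deviate together (correlations from -0.23 to -0.05, and no library correlated best with its own number). Whether libraries of the same number were handled together cannot be told from these correlations. With the replicate block in edgeR, members called higher numbered 10 in MDA-MB-436 and, for BoM-1833, 3. With that block 0 differed between lines (edgeR without the block called 4). The further lists then gave 5 lower in MDA-MB-436 and 2 higher and 1 lower in BoM-1833. The shares of all genes called with the block or at an adjusted p under 0.01 are not given here. Whether these drops are particular to the members was therefore not tested. Signs turned only for values near 0 that no test called: ATP6V1B2 in BoM-1833 was -0.0011 in edgeR, -0.0018 without its filter, -0.00057 with the block and -0.029 to 0.023 without 1 library. Without 1 library, ATP6V1H in MDA-MB-436 ranged from -0.027 to 0.087, and in BoM-1833 ATP6V0A1 from -0.082 to 0.0054, TPP1 from -0.037 to 0.15, PSAP from -0.026 to 0.061 and ATP6V1C1 from -0.016 to 0.010. The cause of these shifts was not tested. Taking the longest transcript changes the length of neither ATP6V1E1 nor the subunit at the median, so that alternative could not move the share of ATP6V1E1 among V1 subunits.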
